A study of Arabidopsis thaliana with 7 samples.

Results

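AT3G28510 is a protein-coding gene of Arabidopsis thaliana whose product is an ATPase of the AAA type. It was taken from the array by its locus name, which 1 probe set carries, out of 13513 probe sets (13355 genes) that each name 1 gene. The gene was chosen by these same measured values, for a large rise with salicylic acid (SA) that held at all 4 SA times. Its SA and control levels are therefore given below as a description, with no test. Mature leaves of Col-0 plants aged 3.5 weeks were measured on 7 Affymetrix ATH1 arrays, with 1 array for each condition. The SA leaves were sprayed with 0.5 mM SA in 0.02% Silwet, a surfactant that wets the leaf, and were taken after 3, 6, 12 or 24 h. The Silwet leaves received 0.02% Silwet without SA and were taken after 6 or 12 h, and the untreated leaves were taken just before the spraying. Each sample pooled leaves of a few wild-type plants, and no condition was repeated on a second array, so the spread between plants is not measured. The 4 SA arrays are set against the 3 control arrays (both Silwet arrays and the untreated one), and an SD of an arm is its spread between times.

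AAA ATPases use the energy of ATP to pull on or unfold other proteins, usually as rings of several subunits. AT3G28510 belongs to the type named after yeast Bcs1, a protein of the inner mitochondrial membrane that in yeast helps to finish complex III of the respiratory chain. Arabidopsis has a large family of such genes, several of them side by side on chromosome 3, and one member, OM66, sits in the outer membrane of mitochondria. SA is the plant hormone of defence against pathogens that feed on living tissue, and it acts through the coactivator NPR1 and TGA transcription factors.

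Values are log2 expression values made by the authors with RMA, which equalises the arrays; 1 unit is a 2-fold difference. The array medians lay within 0.0686 of one another. RCA, the activase of Rubisco and the 1 of 14 listed mesophyll markers with a named probe set, read between 13.70 and 14.22 on all 7 arrays, and the root gene PYK10 between 4.20 and 5.46. None of the listed flower and phloem markers has a named probe set. The guard cell gene FMA (FAMA) read 6.67 to 7.52 in SA arrays and 7.52 to 8.30 in control arrays, and AT1G22690, also a guard cell marker, read 7.63 to 10.84 in SA arrays and 8.77 to 11.03 in control arrays. In whole leaves fewer cells of a type and less RNA per cell cannot be told apart. The excess of the 3′ over the 5′ end of the GAPDH control, a sign of RNA integrity, ran from 0.57 to 1.49 in SA arrays and from 0.85 to 1.78 in control arrays. The same excess for actin ran from 1.72 to 2.48 in SA arrays and from 1.83 to 2.39 in control arrays. The part of any of these in the results below was not tested.

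AT3G28510 read near the top of the array in SA leaves and near its bottom in control leaves. It read 10.53, 11.40, 11.49 and 10.43 at 3, 6, 12 and 24 h after SA. In the control arrays it read 3.99 in Silwet at 6 h, 4.19 in Silwet at 12 h and 3.95 in untreated leaves. All 4 SA arrays thus lay far above all 3 control arrays, with the lowest SA array 6.24 (75.7-fold) above the highest control array. The arm means were 10.96 ± 0.56 with SA (SD, n = 4) and 4.05 ± 0.13 in the controls (SD, n = 3), a difference of 6.92 (SE 0.31, 121-fold). For scale, 5.32% of all probe sets had a mean difference of at least 2-fold upward.

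**Figure D1:**
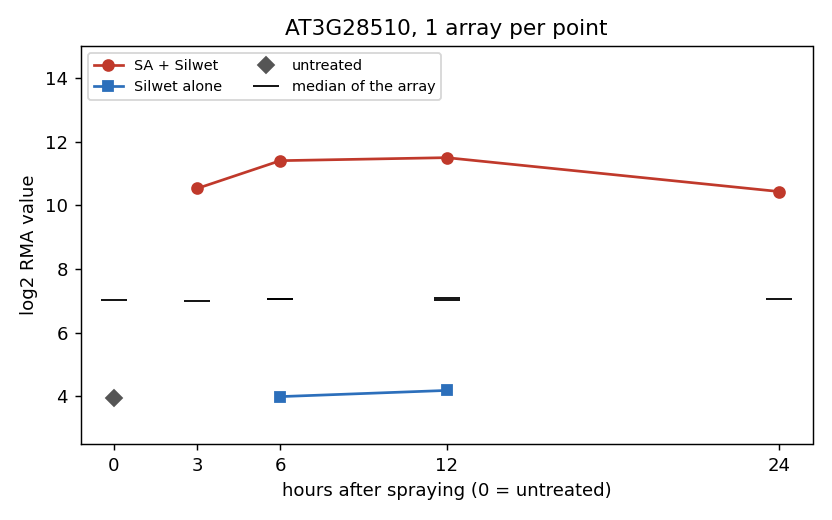
Level of AT3G28510 on each of the 7 arrays (log2 RMA value) against hours after spraying, with circles for SA, squares for Silwet alone, a diamond for untreated leaves and a dash for the median of each array. The SA points lie between 10.43 and 11.49 and the control points between 3.95 and 4.19, on either side of the array medians.

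The course within the SA arm was an early plateau with a small hump. The value at 6 h was 0.87 above that at 3 h, the value at 12 h was 0.09 above that at 6 h, and the value at 24 h was 1.06 below that at 12 h. At 24 h the gene stood within 0.10 of its 3 h level. The whole range over the SA times was 1.06 (2.09-fold), which is 15.4% of the difference between the arms. With 1 array a time, whether the hump exceeds the spread between plants was not tested.

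The place of the probe set among the 13513 differed accordingly. On the SA arrays 94.4%, 97.8%, 98.1% and 94.2% of probe sets read lower at 3, 6, 12 and 24 h, which made it number 756, 294, 260 and 788 from the top. On the control arrays 9.19% read lower in Silwet at 6 h, 12.0% in Silwet at 12 h and 8.69% in untreated leaves. Probe sets bind their targets with different strength, so this is a place on the array and not an amount of RNA. At the low end RMA compresses differences, so the fold values depend on a control level that may lie near background, and no detection call was used here.

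At matched times the difference changed little. SA minus Silwet was 7.40 at 6 h (169-fold) and 7.31 at 12 h (158-fold), number 2 of 13513 at both times. Against untreated leaves, the 1 comparison open to the other times, AT3G28510 stood 6.57 higher at 3 h (number 2) and 6.48 higher at 24 h (number 1), and these values also hold the spray. For scale, 8.65% of probe sets were at least 2-fold higher with SA than with Silwet at 6 h, 5.98% at 12 h, and 7.2% and 3.51% were so against untreated leaves at 3 h and 24 h. The comparisons at 3 h and 24 h share the untreated array.

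AT3G28510 was chosen for a large rise that held at all 4 SA times. Its places here and in the single comparisons above follow largely from that choice and are a description. By the distance between the lowest SA array and the highest control array, AT3G28510 ranked 1 of 13513, and it ranked 1 as well when probe sets that name no gene or several were included. Next came UGT76B1 (AT3G11340), a glucosyltransferase that conjugates SA, at 5.64. AT1G51890, for a receptor kinase with leucine-rich repeats, followed at 3.59, then AT3G47480 at 3.09, AT1G08050 at 3.08 and AT3G13950 at 2.97. AT3G28510 had the smaller mean difference (6.92, against 7.36 for UGT76B1) but also the narrower range within the SA arm, 1.06 against 2.02 for UGT76B1, which read 13.34 at 6 h and 11.33 at 24 h. In all, 0.814% of probe sets, 110 of them, had every SA array at least 2-fold above every control array. Over the 110, the range within the SA arm had a median of 46.9% of the difference between the arms, and AT3G28510, at 15.4%, was number 3 from the smallest. This share also falls as the difference between the arms grows. The range itself, 1.06, was number 43 from the smallest of the 110, beside a median of 1.28. Of the 110, 41 were highest at 3 h, 45 at 6 h, 21 at 12 h like AT3G28510, and 3 at 24 h.

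**Figure D2:**
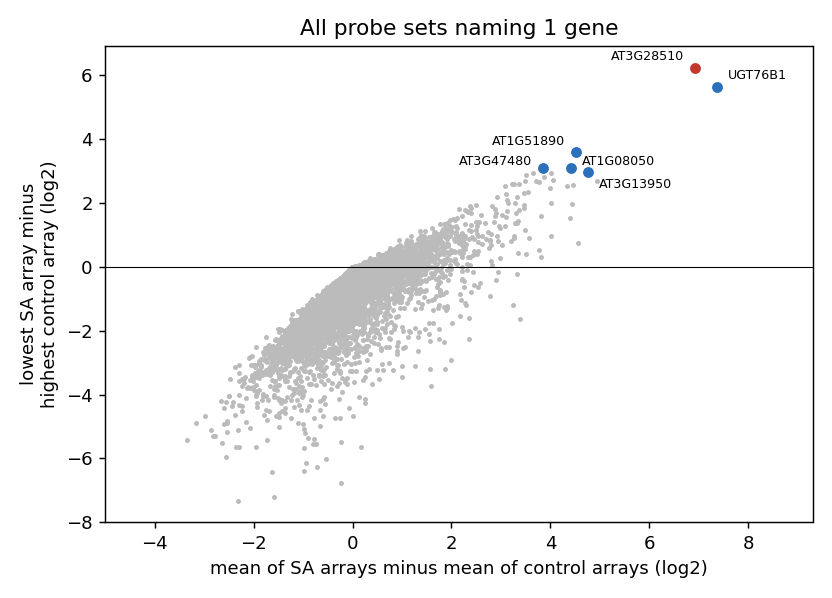
Each of the 13513 probe sets by its mean SA minus control difference (x axis, log2) and by the distance of its lowest SA array from its highest control array (y axis, log2), with AT3G28510 and the 5 next genes on the y axis named. AT3G28510 lies at 6.92 and 6.24, UGT76B1 at 7.36 and 5.64, and the other 4 named genes below 3.6 on the y axis.

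Among the control arrays, sprayed and not, the readings of AT3G28510 spanned 0.24. Low and even control values favoured its choice, so this too is a description, with no test. AT3G28510 stood 0.04 above untreated leaves in the Silwet array of 6 h and 0.24 above them in that of 12 h, a mean of 0.14. The SE of this mean was 0.54 in the limma fit of all 7 arrays, where the spread between SA times enters, and 0.12 with the control arrays alone. In the fit of all arrays 0.0296% of probe sets passed, 4 of 13513 (XTH19, AT4G20820, AT5G59990 and AT1G26790, all lower with Silwet), while 6.23% had an unadjusted p under 0.05.

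The relatives of AT3G28510 differed widely among themselves. Of 25 listed genes of the BCS1 type besides AT3G28510, 16 had a named probe set, and 1 rose: AT3G28540. It read 11.17, 11.64, 11.09 and 10.86 at 3, 6, 12 and 24 h after SA, against 7.67 and 7.26 in Silwet at 6 and 12 h and 8.17 in untreated leaves. The SA arrays were all at least 2.69 above the control arrays, and the arm means were 11.19 ± 0.33 (SD, n = 4) and 7.70 ± 0.45 (SD, n = 3). The difference was 3.49 (SE 0.29, limma adjusted p = 0.00483), and the call held whichever array was left out (adjusted p from 0.00564 to 0.0400). The count of 1 of 16 stands beside 1.33% of all probe sets called, 1.03% higher and 0.303% lower. A share of 20.2% of all probe sets had an unadjusted p under 0.05, as had 5 of the 16. Without the SA 24 h array 4 of the 16 passed in limma, with AT3G28580 (adjusted p = 0.0255), AT5G17760 (adjusted p = 0.0349) and AT5G57480 (adjusted p = 0.0447) added, beside 5.04% of all probe sets under that setting.

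A further 4 relatives were on average at least 2-fold higher with SA without passing the adjusted threshold over all genes. AT1G43910 read 8.18, 9.42, 11.12 and 8.39 at 3, 6, 12 and 24 h after SA, against 5.93 and 6.51 in Silwet and 6.79 in untreated leaves. It differed by 2.87 (SE 0.69, limma adjusted p = 0.0847), with every SA array above every control array and a peak at 12 h. AT5G17760 read 9.65, 11.18, 11.35 and 9.60 with SA, against 7.49 and 8.31 in Silwet and 8.01 untreated. Its arms did not overlap either, with a difference of 2.51 (SE 0.52, limma adjusted p = 0.0631), and like AT3G28510 it was highest at 6 and 12 h and lower at both ends. AT3G28580 read 7.55, 6.75, 6.89 and 5.52 with SA, against 4.12 and 4.19 in Silwet and 5.42 untreated. It differed by 2.10 (SE 0.51, limma adjusted p = 0.0851), and its 24 h value was only 0.10 above the untreated array. AT2G46620 read 10.68, 10.23, 9.46 and 8.05 with SA, against 8.38 and 8.81 in Silwet and 8.46 untreated. Its arms overlapped, since its SA values declined with time to below the controls, and it differed by 1.05 (SE 0.59, limma adjusted p = 0.366).

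**Figure D3:**
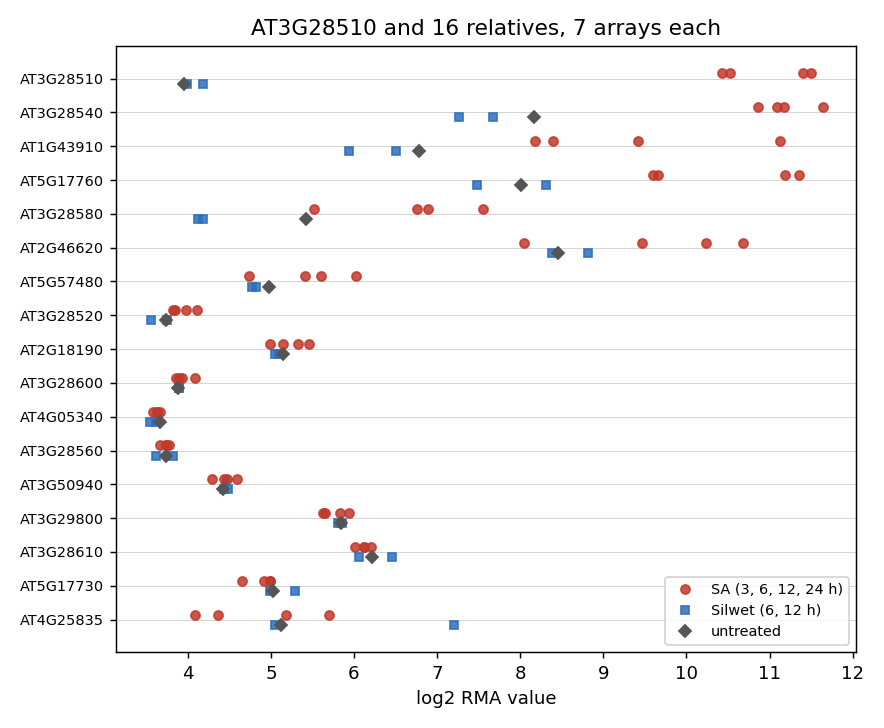
Levels (log2 RMA value, x axis) of AT3G28510 and its 16 measured relatives, 1 row a gene, in order of the mean SA minus control difference, with circles for the 4 SA arrays, squares for the 2 Silwet arrays and a diamond for the untreated array. AT3G28510, AT3G28540, AT1G43910 and AT5G17760 have wholly separate arms at least 1.29 apart, while most lower rows hold all 7 points close together.

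The other 11 relatives had mean differences between -0.95 and 0.58, and 10 of them lay below 7.04, the median of all values, on every array. AT5G57480 differed by 0.58 (SE 0.27), with overlapping arms, and AT4G25835 by -0.95 (SE 0.61), where 1 array stood out, Silwet at 12 h, at 7.20 beside 4.09 to 5.70 on the rest. Without that array the difference of AT4G25835 was -0.25. AT3G28520, the next gene on the chromosome, read 3.83 to 4.11 with SA and 3.56 to 3.75 in the controls, a difference of 0.26 (SE 0.08, limma adjusted p = 0.14). AT2G18190, AT3G28600, AT4G05340, AT3G28560, AT3G50940, AT3G29800, AT3G28610 and AT5G17730 differed by -0.22 to 0.14. At such low readings a small change of a dim gene would be hidden.

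Over the 16, 5 had every SA array above every control array, which 8.67% of all probe sets had, and 0 had every SA array below, against 9.41%. The 5 were AT3G28540, AT1G43910, AT5G17760, AT3G28580 and the dim AT3G28520. In AT3G28580 and AT3G28520 the arms lay only 0.10 and 0.08 apart. The median difference was 0.09 over the 16 and -0.03 over all probe sets. At least 2-fold higher with SA than with Silwet were 5 of 16 at 6 h, where the share of all probe sets was 8.65%, and 5 of 16 at 12 h, where it was 5.98%. At least 2-fold lower were 0 of 16 at 6 h, beside 8.68% of all probe sets, and 1 of 16 at 12 h, beside 6.01%. AT3G28540 was 3.97 and 3.83 higher at these times. The 1 lower at 12 h was AT4G25835 (-1.50). With Silwet alone the mean differences of the 16 from the 1 untreated array lay between -1.27 for AT3G28580 and 1.01 for AT4G25835. Whether probes for one relative also bind the transcript of another was not tested.

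The genes around AT3G28510 on chromosome 3 did not all differ with SA. Of the 10 annotated genes on each side, 12 in all had a named probe set, and 2 of the 12 rose, beside 1.03% of all probe sets: AT3G28540, 3 places after AT3G28510, and AT3G28480, 4 places before it. AT3G28480 read 10.47, 10.72, 10.38 and 9.83 with SA, against 8.43 and 8.69 in Silwet and 8.10 untreated. It differed by 1.94 (SE 0.27, limma adjusted p = 0.0245), with separate arms. This call was lost in limma without the untreated array (adjusted p = 0.0631) and without Silwet 6 h, Silwet 12 h, SA 3 h, SA 6 h or SA 12 h (adjusted p from 0.0745 to 0.105). Between these genes lay AT3G28500 (-0.01, SE 0.10) and AT3G28530 (0.16, SE 0.32), and just beyond AT3G28540 lay AT3G28550 (0.06, SE 0.08). AT3G28460 and AT3G28420 differed by -0.85 (SE 0.23) and -0.64 (SE 0.17), with limma adjusted p = 0.105 and 0.101 and with every SA array below every control array, as 9.41% of all probe sets did. Every SA array lay above every control array in 4 of the 12 and below in 2, beside 8.67% and 9.41% of all probe sets. The 4 include AT3G28580 (2.10) and AT3G28520 (0.26), whose arms lay only 0.10 and 0.08 apart. AT3G28520, AT3G28540, AT3G28560 and AT3G28580 are also among the relatives counted above. The median over the 12 was 0.12.

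**Figure D4:**
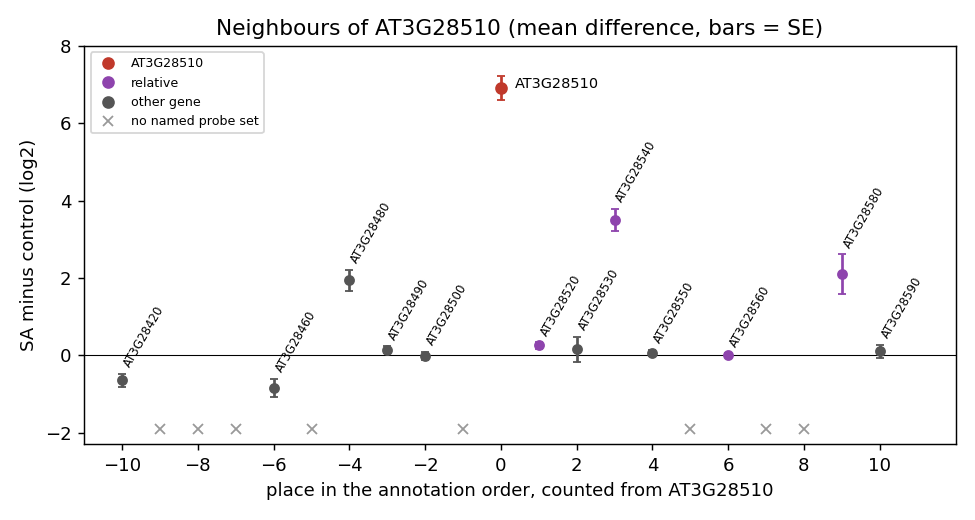
Mean SA minus control difference (log2, y axis, bars are the SE of limma) of the measured genes among the 10 annotated on each side of AT3G28510, by their place in the annotation order (x axis), with crosses for genes without a named probe set. AT3G28510 stands at 6.92, AT3G28540 at 3.49, AT3G28580 at 2.10 and AT3G28480 at 1.94, and the remaining 9 genes lie between -0.85 and 0.26.

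AAA ATPases outside the BCS1 type were read as well. Of 42 listed genes (the RPT subunits of the proteasome, FTSH proteases, CDC48, NSF and others) 8 had a named probe set, 11 probe sets together. In limma 0 of 11 passed, beside 1.33% of all probe sets, and 1 had an unadjusted p under 0.05, beside 20.2% of all probe sets. At least 2-fold higher than with Silwet were 1 of 11 at 6 h and 2 of 11 at 12 h, beside 8.65% and 5.98% of all probe sets. At least 2-fold lower were 0 at both times. AT1G50140, AT4G24860 and AT4G02480 have more than 1 probe set each. The median was -0.05. The largest differences were those of AT4G27680 (0.71, SE 0.25, limma adjusted p = 0.178) and AT1G45000, a proteasome RPT4 subunit gene (0.48, SE 0.28, limma adjusted p = 0.389). Most of the 42 were thus not read here, among them every listed FTSH, CDC48 and NSF gene and every RPT gene but AT1G45000. The counts hold for the measured genes only.

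Mitochondrial genes were read because yeast Bcs1 works on complex III. Of the 11 complex III genes with a named probe set (15 listed), 0 passed in limma, 3 had an unadjusted p under 0.05 and 10 were higher on average, with a median of 0.40. Over all probe sets 1.33% passed, 20.2% had an unadjusted p under 0.05 and 5703 of 13513 were higher, with a median of -0.03. AT5G25450, a subunit gene, read 8.37, 7.88, 7.17 and 7.43 with SA, against 6.73 and 6.55 in Silwet and 6.82 untreated, and differed by 1.01 (SE 0.29, limma adjusted p = 0.116). AT1G51980, for the alpha subunit of the mitochondrial processing peptidase, which in plants is part of complex III, differed by 0.66 (SE 0.17, limma adjusted p = 0.0998). In 4 of the 11 every SA array lay above every control array, which 8.67% of all probe sets had.

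Of 13 listed genes of mitochondrial stress 3 had a named probe set, and 1 of the 3 rose, beside 1.03% of all probe sets: NDB2, an alternative NAD(P)H dehydrogenase of mitochondria. NDB2 read 11.28, 11.81, 10.68 and 10.42 with SA, against 7.67 and 7.47 in Silwet and 8.65 untreated, and differed by 3.12 (SE 0.42, limma adjusted p = 0.0234). This call was lost in limma without Silwet 6 h, Silwet 12 h, SA 3 h, SA 6 h or SA 12 h (adjusted p from 0.0689 to 0.106) and with clock time as a block (adjusted p = 0.0635). Without SA 12 h another of the 3 passed in its place. AT5G51440, a small heat shock protein gene, read 9.92, 8.98, 6.09 and 8.06 with SA, against 4.94 and 4.64 in Silwet and 4.74 untreated. Its arms did not overlap, and it differed by 3.49 (SE 0.81, limma adjusted p = 0.0787). AT2G21640 differed by 0.27 (SE 0.23), with overlapping arms.

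Among 32 listed SA signalling genes 3 had a named probe set, and 1 of the 3 rose, beside 1.03% of all probe sets: GRX480, a glutaredoxin that binds TGA factors. GRX480 read 12.14, 11.60, 10.07 and 9.55 with SA, against 5.82 and 6.63 in Silwet and 7.03 untreated, and differed by 4.34 (SE 0.66, limma adjusted p = 0.0351). In contrast to AT3G28510 it was highest at 3 h and lower at each later time. Its call was lost in limma when any single array other than SA 24 h was left out (adjusted p from 0.0631 to 0.122). SAG101 differed by 1.40 (SE 0.26, limma adjusted p = 0.0565), with separate arms. WRKY53, a transcription factor gene of senescence and defence, read 9.60 to 12.27 with SA, against 5.42 and 8.17 in Silwet and 11.85 untreated, so its arms overlapped (2.35, SE 1.42, limma adjusted p = 0.402). NPR1 and the TGA genes are not analysed here.

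The genes whose course over the 7 arrays was most like that of AT3G28510 were ranked by Pearson's r, among the 1852 probe sets that spanned at least 2 log2 units. All points share the same arrays, and r takes in the step between the arms as well as the course within them: 150 of the 1852 (8.10%) had r above 0.9. The highest was AT1G15790 (r = 0.998), which read 8.83, 9.26, 9.09 and 8.52 with SA, against 5.78 and 5.98 in Silwet and 5.75 untreated. It was followed by AT3G47480 (0.994), the caffeoyl-CoA methyltransferase gene CCOAMT (0.993), AT3G51330 (0.990), AT1G03290 (0.989), and then by AT1G18910, AT1G11330, AT5G03350, UGT76B1 and AT5G44820, each with r = 0.988. CCOAMT read 7.33, 7.70, 7.90 and 7.44 with SA, against 5.18 and 5.49 in Silwet and 4.92 untreated, so it too was highest at 12 h.

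These 10 genes were picked for a course like that of AT3G28510, so their highest and lowest SA times follow largely from that choice. Of these 10 genes 4 were highest at 12 h, 5 at 6 h and 1 at 3 h, and 8 were lowest, among the SA times, at 24 h. Their mean differences ran from 1.85 for AT1G03290 to 7.36 for UGT76B1, the next largest being 3.86 for AT3G47480. AT3G28510, chosen for a large rise, was number 2 of all probe sets by this difference, behind UGT76B1. That 9 of the 10 had a smaller step than AT3G28510 was thus fixed by its choice and is no result about these genes. AT5G03350 read 13.83, 13.90, 13.94 and 13.54 with SA, against 10.94 and 10.17 in Silwet and 10.54 untreated. Its highest value was at 12 h, but only slightly above that at 6 h. No listed relative was among the 10. On chromosome 3, as AT3G28510, lie 3 of the 10, but the share of all probe sets on that chromosome was not counted, so no link is drawn. The choice of measure mattered: 2 of the 10 remained when Spearman's rho was used, where 6 probe sets tied at 1, and 3 when a span of at least 4 log2 units was required.

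The most opposite courses were those of AT2G29310 (r = -0.980), AT1G56720 (-0.972) and AT5G19090 (-0.969). AT2G29310 read 6.90 to 7.98 with SA, against 10.02 and 9.53 in Silwet and 9.64 untreated, and was lowest at 12 h, where AT3G28510 was highest. Its difference between the arms was -2.37.

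**Figure D5:**
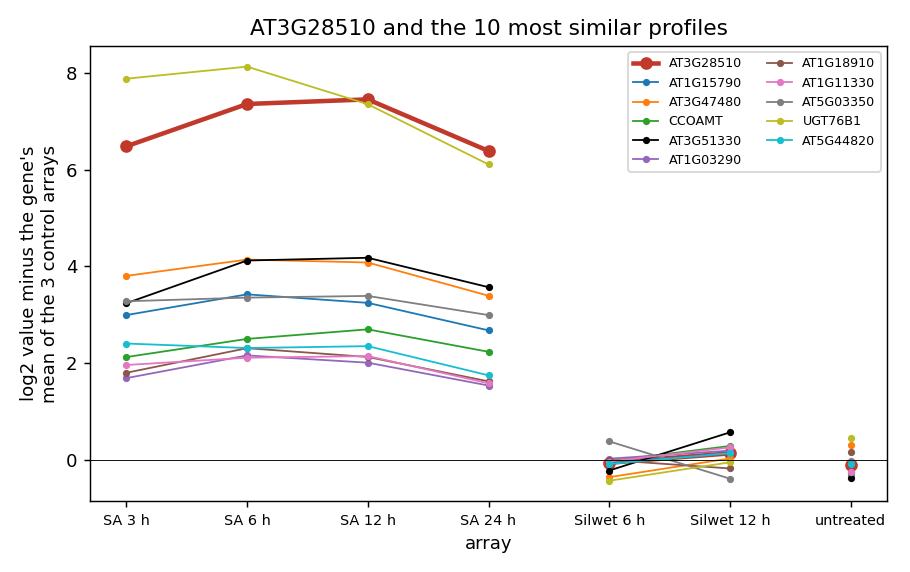
Log2 value minus the mean of the gene's own 3 control arrays (y axis) on each array (x axis), for AT3G28510 (thick line) and the 10 genes with the highest Pearson r to it; lines join times of 1 treatment only. The SA points of AT3G28510 and UGT76B1 lie above 6, those of the other 9 genes between 1.54 and 4.18, and the control points of the 10 between -0.42 and 0.58.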

How the data were processed

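Per the submitters' processing notes, RMA of the affy package (version not given in the sources used here) gave the log2 values that the authors deposited. RMA makes the distributions of all arrays equal, so a shift shared by most transcripts would be hidden. The genome build is not given in the sources used here, and no coordinates are printed. Of 22810 probe sets, 64 were array controls; 13513 named 1 gene, 503 several and 8794 none. Names came from the platform annotation, updated through gene numbers to RefSeq's TAIR10.1 table.

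Differences were fitted with limma 3.58.1 in R 4.3.3 (lmFit, eBayes with trend, two-sided, Benjamini-Hochberg over 13513, threshold 0.05): SA against control arrays, and, in a fit with 3 treatment classes, Silwet against untreated. Error is the spread between times, not between plants. The fits were tested on simulated data with known changes and independent noise between arrays. That checks the size of the estimates, not the validity of calls made without replicates. Arrays have no depth; their number, 7, limits the precision.

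The gene and the lists were chosen with earlier results of these data known. Family lists came from general knowledge, since the annotation gives most members only a locus. Named were AT3G28510, its measured relatives, list members that passed or else the 2 with the largest difference, the 10 most and 3 least similar genes, and the 5 next in rank. Among the neighbours and the lists with 3 measured genes, further genes were named after their values were seen. No condition was repeated, so outlying samples within a condition could not be sought.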

Additional observations from a re-analysis of the deposited data

How the results depend on the processing

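The SA minus control difference of AT3G28510 lay between 6.74 and 7.09 when single arrays were left out. It was 6.87 with Silwet arrays only as control, which is the same fit as that without the untreated array. It was 6.90 with each array centred on its median and 7.06 with clock time as a block. The gene was chosen by these values, so the moves are a description only. Its Silwet minus untreated difference ran from 0.04 to 0.24 without single arrays. Counts of calls depended on single arrays. The 180 probe sets called between SA and control (limma, adjusted) became 17 to 681 without single arrays. Leaving out Silwet at 12 h gave 17 and at 6 h 27. Leaving out SA at 3 h gave 58, at 6 h 31, at 12 h 44 and at 24 h 681. Leaving out the untreated array, which is the fit with Silwet arrays only as control, gave 92. The count was 348 among bright probe sets only, those with a mean level at or above the median. It was 395 over all 22810 probe sets but the 64 array controls. Both rest on totals other than 13513, so they do not compare directly with the 180. The 4 called for Silwet against untreated became 1 to 13 without single arrays (13 without SA 24 h; 1 without Silwet 12 h, SA 6 h or SA 12 h; 2 without Silwet 6 h), 1 with no trend and 0 with only the control arrays in the fit. Without single arrays the calls were 1 to 4 among the relatives, 1 to 3 among the neighbours, 0 to 1 among mitochondrial stress genes and 0 to 2 among SA signalling genes. With Silwet arrays only as control 1 neighbour and 0 SA signalling genes passed. For the lists the settings with clock time as a block, with no trend and with centring were added after seeing the data: under the block 0 mitochondrial stress and 0 SA signalling genes passed, and with no trend 0 SA signalling genes. The complex III genes and the other AAA ATPases had 0 calls in each of these fits. Centring kept the matched differences of AT3G28510 at 7.39 (6 h) and 7.26 (12 h). The cause of these moves was not tested. No pairing by replicate was possible, since no condition was repeated. The block by clock time joins the SA and Silwet arrays of 6 h, those of 12 h, and SA 24 h with the untreated array. SA 3 h is alone in its block, so the differences under the block equal those without SA 3 h, as 7.06 for AT3G28510 in both. Without replicates, plant-to-plant variation is unmeasured, and levels near the low end limit fold values.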
